A study of Bos taurus with 252 samples.

Results

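The globin genes described here are the rows HBB, HBA, HBA1, HBM and AHSP of a table of gene counts from whole blood of cattle. They were chosen by name, they are 5 of the 33282 genes in the table, and all 5 were among the 19056 genes abundant enough to be tested. HBB codes for the beta chain of adult hemoglobin, HBA and HBA1 for its alpha chain, and HBM is an alpha-like gene (mu globin) that lies in the alpha cluster. AHSP codes for a small chaperone that holds free alpha chains until they pair with beta chains. In the gene order of RefSeq (assembly ARS-UCD2.0, used here for order alone), HBZ, HBM, HBA, HBA1 and HBQ1 follow each other on 1 chromosome, HBB sits between LOC528470 and HBE2 on another, and AHSP lies apart from both clusters.

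Blood was drawn by jugular venipuncture from 42 crossbred steers into tubes that stabilize RNA, on day 0 of a feedlot receiving period, on days 3 and 7, on days 14 and 21 and last on day 56, which gave 6 stranded mRNA libraries for each steer. The steers formed 7 groups of 6. The negative control group (NC) received no antimicrobial, and the others received a single injection of the macrolides tulathromycin (TULA) or tildipirosin (TILD), of oxytetracycline (OXYT), of florfenicol (FLOR), of the fluoroquinolone enrofloxacin (ENRO) or of the cephalosporin ceftiofur (CEFT) once the day 0 sample was drawn. All groups, NC included, had been given tildipirosin, a growth implant, vaccines and dewormers in an earlier backgrounding period. The steers shared a pen overnight before the day 0 sample, and they were allocated to the groups at random with body weight balanced. Each group was then kept in a pen of its own, and NC was handled first on each later sampling day. After day 0 a difference between groups can therefore not be told apart from a difference between pens. NC and ENRO were sequenced on lane 1, TULA on lane 2, CEFT and OXYT on lane 3, FLOR on lanes 1 and 2, and TILD on lanes 2 and 3.

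Hemoglobin is made in the erythroid cells of the bone marrow. The mature red cell has lost its nucleus and nearly all of its RNA, while the reticulocyte, the cell that precedes it, still carries hemoglobin mRNA and loses it as it matures. Few reticulocytes circulate in healthy adult cattle, and the hemoglobin mRNA of bovine whole blood is known to be scarce compared with that of human blood. In these libraries, which come from lysed whole blood, fewer cells of a type and less RNA per cell cannot be told apart.

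Library totals, in units of 1e6 counts, lay between 26.1 and 74.1 with a median of 43.6. Values are given as CPM, the counts of a gene scaled to 1e6 counts of its library, and they are not divided by transcript length, so that levels are compared between libraries and not between genes. The hemoglobin share is the percentage of a library's counts that fell on HBB, HBA, HBA1 and HBM together. Each value belongs to 1 steer on 1 day, and n counts steers.

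The hemoglobin share rose from day 0 to days 14 and 21 and was lower again on day 56. Its median over the 42 steers was 0.224% before treatment, 0.622% at day 3, 0.9904% at day 7, 3.06% at day 14, 3.35% at day 21 and 0.334% at day 56. The lowest and the highest library were 0.00393% and 4.02% for day 0, 0.0211% and 25.5% for day 3, 0.00864% and 21.4% for day 7, 0.0290% and 20.3% for day 14, 0.0700% and 20.3% for day 21, and 0.0206% and 12.002% for day 56. The ranges of all days overlapped widely, and single steers differed by more than the medians of the days did. A share of at least 1% was found in 7 of the 42 libraries before treatment and, at the 5 later times in order, in 16, 21, 33, 34 and 9.

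**Figure D1:**
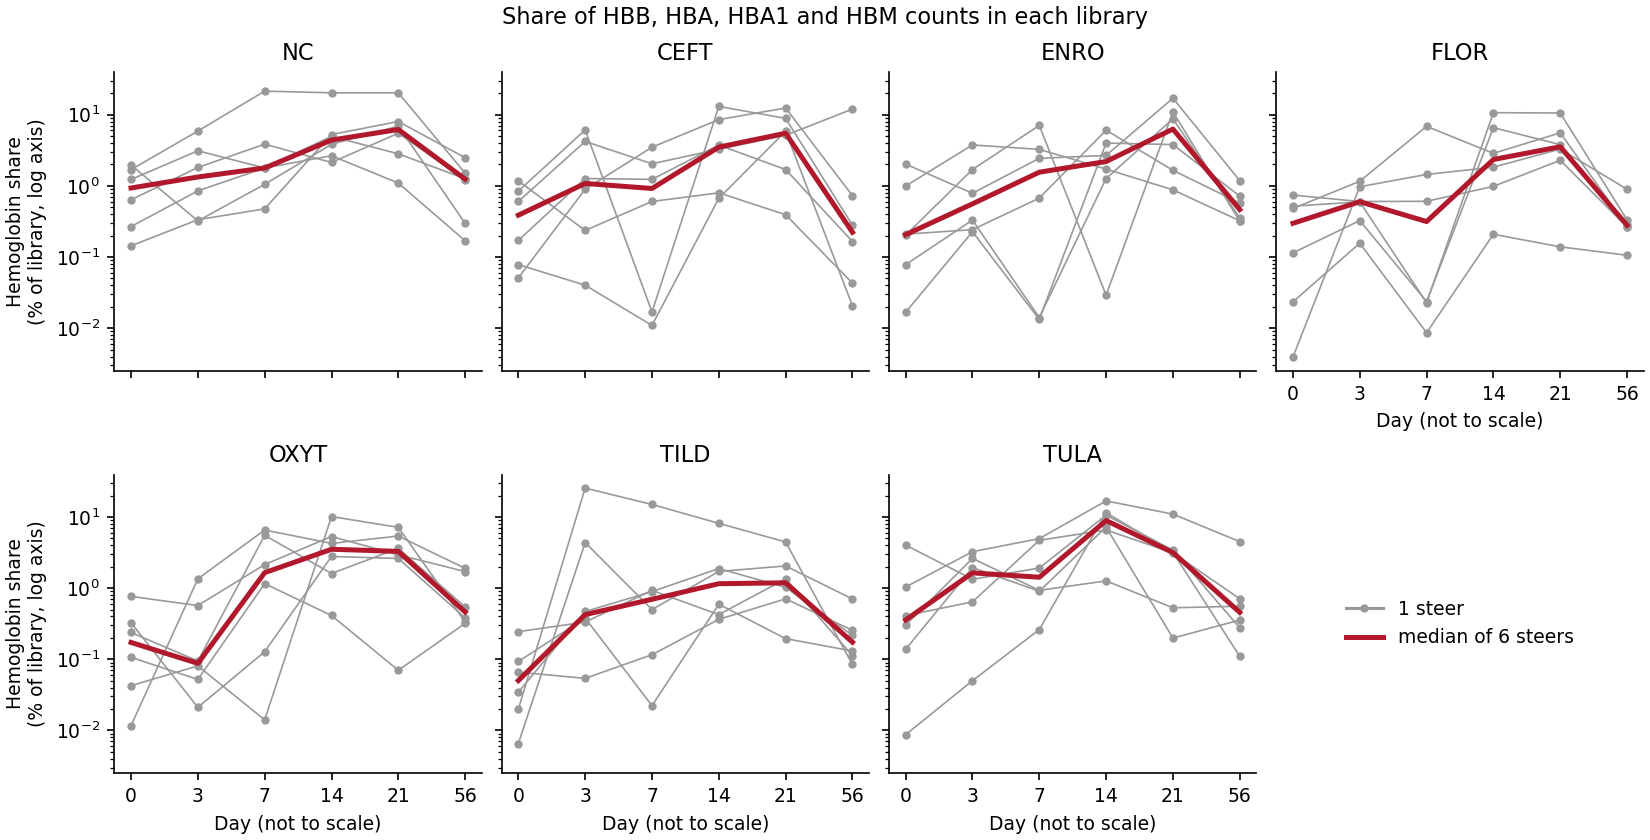
Hemoglobin share of each library (percent of library counts, log axis) by day, 1 panel for each group, with 1 grey line for each steer and the group median in red. Medians were highest on day 14 or day 21 in all 7 groups, and single steers moved between 0.01% and over 10%.

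Within steers, the share was above its day 0 value in 31 of 42 steers at day 3, in 28 at day 7, in 40 at day 14, in 37 at day 21 and in 28 at day 56. The mean log2 change from day 0 was 1.77 ± 0.46 (SE) for day 3, 1.72 ± 0.53 for day 7, 3.83 ± 0.44 for day 14, 3.84 ± 0.44 for day 21 and 1.17 ± 0.43 for day 56. A sign-flip permutation test over steers passed on all 5 days, with adjusted p of 0.000233, 0.00272, 2.5e-05, 2.5e-05 and 0.00896, where 2.5e-05 is the adjusted form of 1e-05, the smallest p that 100000 resamples can give. On day 56 the mean was thus still above day 0, by 2.26-fold, while the medians of the 2 days were 0.224% and 0.334%. Within single lanes of 14 steers, days 14 and 21 passed in all 3 lanes, day 3 in lanes 1 and 2, day 7 in lane 2 and day 56 in none (exact sign-flip permutation test).

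The steps between sampling days were unequal. From day 0 to day 3 the share rose in 31 steers, by 3.40-fold in the mean of the log2 changes, and from day 7 to day 14 it rose in 32, by 4.32-fold. Between days 3 and 7, 25 steers went up and 17 went down, and the mean log2 change of -0.05 ± 0.43 (SE) did not pass the permutation test (adjusted p = 0.972). Days 14 and 21 did not differ beyond the spread either, with a mean log2 change of 0.01 ± 0.31 (SE, adjusted p = 0.972, permutation test). From day 21 to day 56 the share fell in 38 of 42 steers, to a fold of 0.157 (adjusted p = 6e-05, permutation test). In order of their medians the days were 0, 56, 3, 7, 14 and 21, and the neighbours 56 and 3 did not differ beyond the spread (log2 difference of 0.59 ± 0.36, SE; adjusted p = 0.162, permutation test).

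The day of the highest share differed between steers. It was day 14 in 18 steers, day 21 in 12, days 3 and 7 in 5 each, and days 0 and 56 in 1 each. The lowest share belonged to day 0 in 16 steers, to day 56 in 10, to day 7 in 9, to day 3 in 6 and to day 14 in 1. A steer's highest library held a median of 28.1 times the share of its lowest, with a range from 8.61 to 1315 times. The widest range was that of Tula8, which went from 0.00872% on day 0 to 11.5% on day 14.

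A steer's share on 1 day gave some of its place on the next sampling day. The correlation of log2 shares over the 42 steers was r = 0.51 (Spearman's rho = 0.57) between days 3 and 7, with an adjusted permutation p of 0.00225 for r. It was 0.44 (rho = 0.49, adjusted p = 0.00917, permutation test) between days 14 and 21 and 0.39 (rho = 0.41, adjusted p = 0.0184, permutation test) between days 21 and 56. Days 0 and 3 gave r = 0.22 (rho = 0.29, adjusted p = 0.211, permutation test) and days 7 and 14 gave r = 0.12 (rho = 0.18, adjusted p = 0.455, permutation test). Without the 2 steers farthest from the median of the earlier day the 5 values of r, in order of time, were 0.34, 0.47, -0.03, 0.59 and 0.38. Within lanes 1, 2 and 3 the values were 0.72, 0.72 and 0.24 for days 3 and 7, -0.01, 0.63 and 0.78 for days 14 and 21, and 0.38, 0.38 and 0.31 for days 21 and 56. Of all variance in the log2 share over all libraries, 27.1% lay between days, 28.1% between steers and 44.7% in neither. The share and the library total gave r from 0.07 to 0.27 and rho from 0.13 to 0.32 on the 6 days, and none passed, with a smallest adjusted permutation p of 0.293 for r and 0.147 for rho. For rho the unadjusted permutation p was 0.0367 on day 14 and 0.0491 on day 21.

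Libraries of very different share came from neighbouring days of the same steer. Enro6 held 7.06% on day 7, 0.0290% on day 14 and 10.97% on day 21. Ceft8 held 6.11% on day 3, 0.0169% on day 7 and 13.1% on day 14, and Flor3 held 0.0228% on day 7 and 10.7% on day 14. The highest shares were those of Tild3, at 25.5% on day 3 and 14.96% on day 7, and of NC5, at 21.4%, 20.3% and 20.3% on days 7, 14 and 21. Without these 2 steers the share still passed on all 5 days, with a mean log2 change of 3.72 on day 14.

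The single genes showed the same course. HBB, the beta chain, had medians of 1087, 2936, 5079, 13894, 13235 and 1665 CPM over the 6 days in order. Its lowest and highest libraries were 30.8 and 19711 CPM on day 0 and 219.6 and 82189 CPM on day 14. HBB was higher on day 14 than on day 0 in 40 of 42 steers and higher on day 21 in 38.

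HBA1, the alpha gene next to HBQ1, had medians of 796.5, 2661, 3816, 13614, 14716 and 1236 CPM over the same days, from a library of 4.56 CPM (Oxyt4, day 0) to one of 113049 CPM (NC5, day 14). HBA, the neighbouring alpha gene, had medians of 303.9, 873.1, 1704, 4186, 4959 and 559.6 CPM. HBA was higher on day 21 than on day 0 in 41 of 42 steers and HBA1 in 39. The transcripts of HBA and HBA1 are nearly alike, so the counts of one against the other are uncertain, and their sum is the firmer value.

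HBM, the mu globin gene, had medians of 4.49, 15.4, 16.2, 38.1, 30.6 and 5.38 CPM, and was above its day 0 value in 39 of 42 steers on day 14. It had no count in 7 libraries, all of them among the 24 libraries with a hemoglobin share under 0.05%. AHSP, the alpha chain chaperone, had medians of 0.891, 1.09, 1.18, 1.70, 1.72 and 1.07 CPM on the 6 days. Its lowest library held 0.182 CPM (Flor7, day 0) and its highest 10.6 CPM (NC5, day 14). A library held between 9 and 468 counts of AHSP with a median of 54.5, so counting error is part of the spread of its single values. AHSP was above its day 0 value in 33 of 42 steers on day 14 and in 36 on day 21.

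In a fit of all libraries with steer as a block (edgeR's quasi-likelihood test, FDR of 0.05 over all genes tested), HBB, HBA, HBA1 and HBM were called higher on days 3, 7, 14 and 21, and AHSP was called higher on days 14 and 21. Of all genes tested, 22% were called higher at day 3, 25.5% at day 7, 33.8% at day 14 and 33.6% at day 21, so that a call by itself sets no gene apart on these days. With library totals in place of TMM the day 14 calls over all genes were 4705 higher and 7503 lower, against 6449 and 5946, and the median of all genes moved by -0.10 on day 14 and -0.11 on day 21 on the log2 scale, while the same 18 of the 25 changes of the 5 genes passed. An F test over the 5 changes passed for all 5 genes, as for 80.4% of all genes. On day 14 the log2 fold change was 3.69 ± 0.50 (SE) for HBA1, 3.41 ± 0.46 for HBA, 3.24 ± 0.42 for HBB, 2.92 ± 0.38 for HBM and 0.93 ± 0.19 for AHSP, with edgeR adjusted p from 2.67e-12 for HBB to 8.53e-06 for AHSP. Of the 19056 genes ordered by log2 fold change on day 14, HBA1 stood at place 30, HBA at 41, HBB at 53, HBM at 66 and AHSP at 605. On day 21 the places were 7, 15, 24, 65 and 519, and on day 56 they were 742, 948, 1084, 1325 and 4759. Without NC5 and Tild3 the same number of 18 changes passed, and AHSP on day 14 gave 0.79. On day 3 the log2 fold change was highest for HBM, at 1.699 ± 0.37 (SE, edgeR adjusted p = 6.29e-05), with 1.19 ± 0.40 for HBB, 1.26 ± 0.44 for HBA and 1.43 ± 0.47 for HBA1, and the differences between these 4 were not tested. AHSP gave 0.28 ± 0.20 on day 3 and 0.40 ± 0.20 on day 7, which did not pass.

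**Figure D2:**
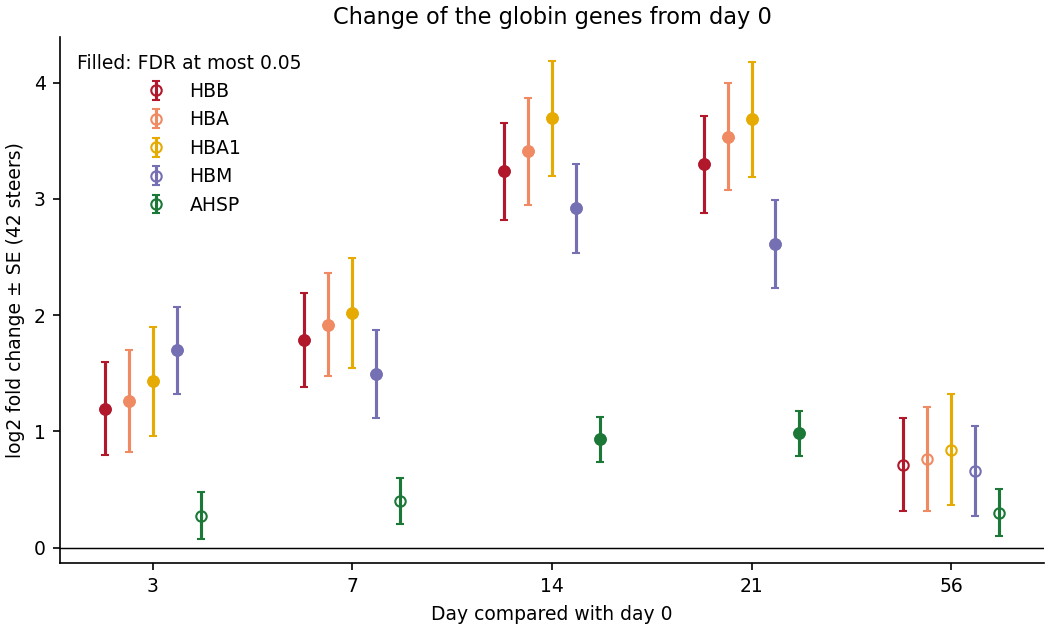
Log2 fold change from day 0 with its standard error for the 5 genes on days 3 to 56, over 42 steers, with filled points where the FDR was at most 0.05. HBB, HBA, HBA1 and HBM lie between 2.61 and 3.69 on days 14 and 21 and below 0.85 on day 56, and AHSP stays below 1 throughout.

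On day 56 none of the 5 genes was called, with log2 fold changes from 0.30 for AHSP to 0.84 for HBA1 and adjusted p from 0.109 to 0.190, on a day when 33.5% of all genes were called higher. At an unadjusted p below 0.05 the number was also 0. When limma voom took steer as a random effect, HBB, HBA and HBA1 passed on day 56, with a log2 fold change of 1.10 for HBB beside 32.6% of all genes called higher, while HBM on day 7 did not, beside 23.4%. The test of the share, which averages the log2 changes of single steers, also passed on day 56.

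The value of AHSP differed between lanes, which held different groups. In lane 1, which held NC, ENRO and 2 steers of FLOR, its log2 fold change was 0.06 on day 14 and 0.61 on day 21 and neither passed, beside 16.8% and 16.4% of all genes called higher there. Lanes 2 and 3 gave 1.32 and 1.2995 on day 14 and passed, beside 24.5% and 23.3%. Among the 6 NC steers alone it was 1.69 on day 14 (edgeR adjusted p = 0.0114), beside 13.6%. The groups of lane 1 went different ways, since in the fit with a day 14 change for each group AHSP rose by 1.72 in NC (edgeR adjusted p = 0.00504) and changed by -0.69 in ENRO (edgeR adjusted p = 0.327). All NC and ENRO steers were on lane 1, while in the values that differ between lanes, lane and group cannot be told apart. For HBB the day 14 value was 2.99, 3.37 and 3.27 in the 3 lanes and 2.20 in NC alone, and all 4 passed.

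Within the single groups the direction on days 14 and 21 was shared for HBB, HBA, HBA1 and HBM. On day 14 HBB was higher than on day 0 in all 7 groups and called in 6, with log2 fold changes from 2.22 to 3.99. HBA, HBA1 and HBM were each higher in all 7 groups and called in 5, and AHSP was higher in 6 and called in 3. Pooled over the 7 groups, 16% of tests of all genes were called higher on day 14. On day 21 HBA1 was called in 6 groups, HBB, HBA and HBM in 5 and AHSP in 2, beside 16.3%. On day 3 no group gave a call for HBB, HBA or HBA1, and 1 group did for HBM and 1 for AHSP, beside 3.48% of all tests called higher. On that day HBB, HBA and HBA1 were higher in 6 groups and lower in OXYT, at -0.57, -0.04 and -0.30. HBM was higher in all 7 groups and AHSP in 5.

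The shares by group on day 0, before any injection, already differed in their medians. The median was 0.933% in NC, 0.387% in CEFT, 0.356% in TULA, 0.298% in FLOR, 0.206% in ENRO, 0.172% in OXYT and 0.0502% in TILD. The ranges of these groups overlapped, since NC ran from 0.144% to 1.96% and TILD from 0.00654% to 0.244%. On day 14 the medians were 8.90% in TULA, 4.40% in NC, 3.52% in OXYT, 3.50% in CEFT, 2.35% in FLOR, 2.20% in ENRO and 1.15% in TILD. On day 21 TILD was again lowest at 1.19%, from 0.195% to 4.45%, and ENRO and NC were highest at 6.28% and 6.20%. By day 56 NC had the highest median, 1.24%, and TILD the lowest, 0.174%.

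No group differed from NC in its share past the adjustment. Of 36 comparisons of a treatment with NC on a day (exact permutation test, 6 against 6, smallest possible p of 0.00216), 0 passed after adjustment and 6 had an unadjusted p below 0.05, 4 of them in TILD and 2 in OXYT. A single comparison at that smallest p could not have passed alone after adjustment over 36, so 0 passes does not show equal shares. In none of the 36 did the 2 groups of libraries lie apart. The TILD steers had the lowest unadjusted p on day 0, where their log2 share was 3.97 ± 0.97 (SE) below that of NC (exact permutation p = 0.00433, adjusted p = 0.156). Lane and treatment cannot be told apart in this comparison, because no TILD steer shared a lane with NC.

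The single genes gave the same answer. Each of the 5 genes was compared with NC for 6 treatments on 6 days by edgeR's quasi-likelihood test at an FDR of 0.1, and 0 of 180 comparisons passed, while 28 had an unadjusted p below 0.05 and 149 had a value below NC. Over all genes, 0.508% of the pooled tests were called and 9.24% had an unadjusted p below 0.05. All 180 values were set against the same 6 NC steers and the hemoglobin genes moved together, so that the values are not independent of each other and their common direction is a description. DESeq2 gave an adjusted p for 155 of the 180 and called 10 of them, beside 3.37% of all its tests, and 8 of the 10 were in TILD on days 0, 21 and 56. For HBB on day 0 the 6 NC libraries held between 784 and 9698 CPM with a median of 5309, and the 6 TILD libraries between 57.3 and 1087 CPM with a median of 295.8. These overlapped in range, and the log2 fold change was -3.57 ± 0.79 (SE, edgeR adjusted p = 0.338). On day 21 the HBB median was 27153 CPM in NC and 5256 in TILD, with a log2 fold change of -2.24 ± 0.79 (SE, edgeR adjusted p = 0.169). On day 3, when Tild3 alone held 146491 CPM, the TILD value turned to 1.96 ± 1.38 (SE, edgeR adjusted p = 0.522).

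**Figure D3:**
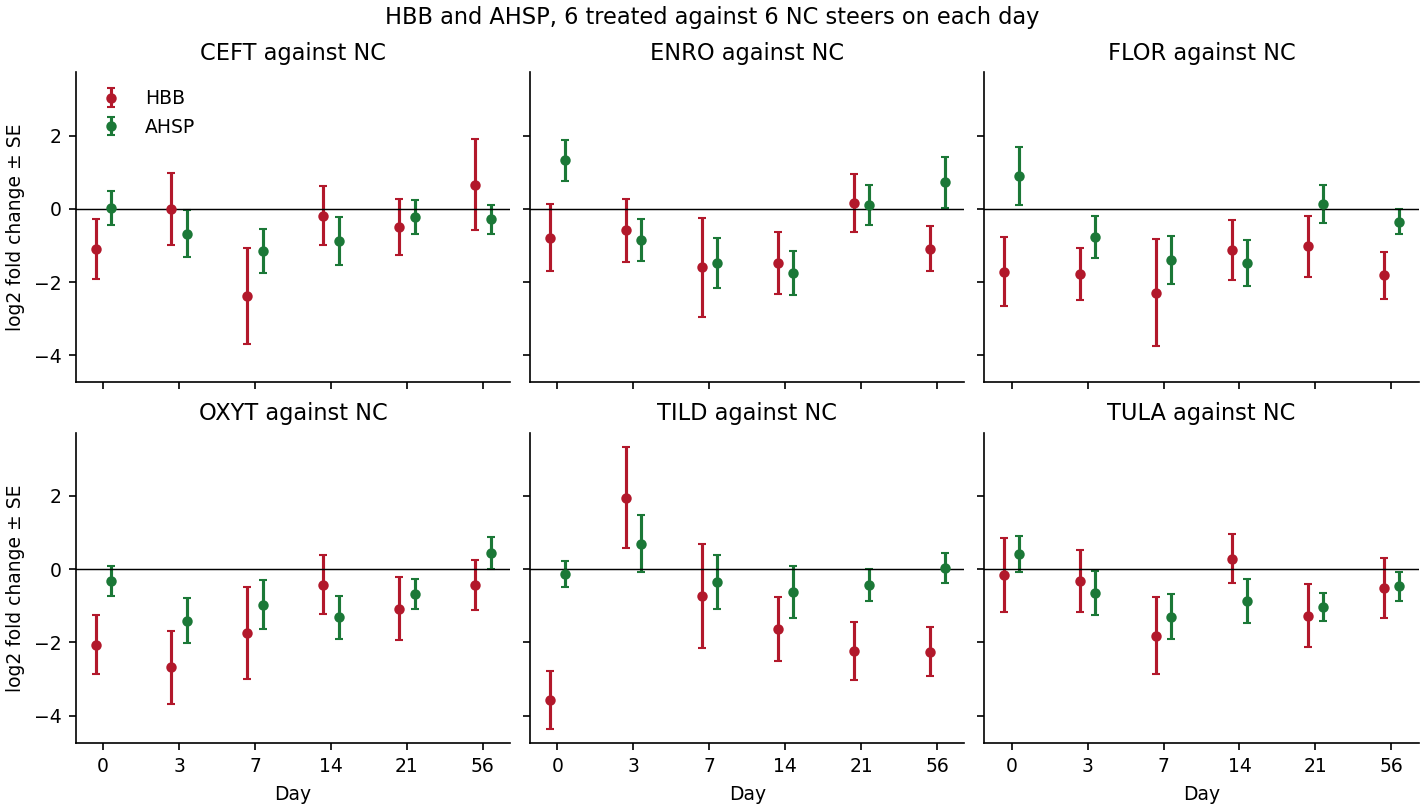
Log2 fold change of HBB and AHSP between 6 treated and 6 NC steers on each day, with standard errors, in 1 panel for each treatment. Most points lie below 0, day 0 included, and none of these differences passed an FDR of 0.1 in the edgeR test.

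When each treatment's change from day 0 was set against the change in NC, which removes what differed between steers before the injections, 1 of 150 values passed an FDR of 0.1. Over all genes 0.750% of such tests were called. The differences were mostly above 0 for HBB, in 23 of 30, for HBA, in 26, and for HBA1, in 22, but none passed, and 0 of the 120 for the hemoglobin genes had an unadjusted p below 0.05. For AHSP they were below 0 in 26 of 30. All 150 values share the 6 NC steers, and the days of a treatment share their day 0 libraries, so they are not independent. An F test over all 30 terms gave an adjusted p of 0.0816 for AHSP, past the FDR of 0.1 as for 40% of all genes, and 0.737 to 0.978 for the other 4. The group effect over all 6 days (limma voom, FDR of 0.05) was below NC in 30 of 30 values and passed in 0, with 4 at an unadjusted p below 0.05, beside 1.95% of all tests called. These 30 values share the 6 NC steers as well and are not independent of each other. Their lowest value was -2.403 on the log2 scale, for HBA1.

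The 1 value that passed was AHSP in ENRO on day 7. In the 6 ENRO steers AHSP went from 5.87 to 1.87 CPM in Enro10, from 2.10 to 0.426 in Enro2, from 2.52 to 0.831 in Enro5, from 1.81 to 2.29 in Enro6, from 0.600 to 0.461 in Enro8 and from 0.916 to 0.872 in Enro9. In the NC steers it went from 1.04 to 1.05 CPM in NC1, from 0.287 to 1.76 in NC12, from 0.711 to 1.68 in NC13, from 1.498 to 1.25 in NC15, from 0.781 to 7.90 in NC5 and from 1.67 to 1.58 in NC7. AHSP thus fell in 5 of 6 ENRO steers and rose in 4 of 6 NC steers, and the 2 sets of changes overlapped. The difference of the changes was -2.22 on the log2 scale (edgeR, adjusted p = 0.0403), where 11.3% of all genes were called for the same contrast. The call was lost without Enro10 (-1.96, adjusted p = 0.133), without Enro2 (-1.97, adjusted p = 0.226) and without NC5 (-1.63, adjusted p = 0.220), all by edgeR, and it passed without any other single steer. An exact permutation test of the 12 log2 changes gave p = 0.0281, and 0.0938 after adjustment over the 5 days. On day 14 the difference was -2.41 on the log2 scale and did not pass (edgeR adjusted p = 0.344). ENRO was above NC on day 0, with a median of 1.96 against 0.910 CPM, and below it on day 7, with 0.852 against 1.63 CPM.

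**Figure D4:**
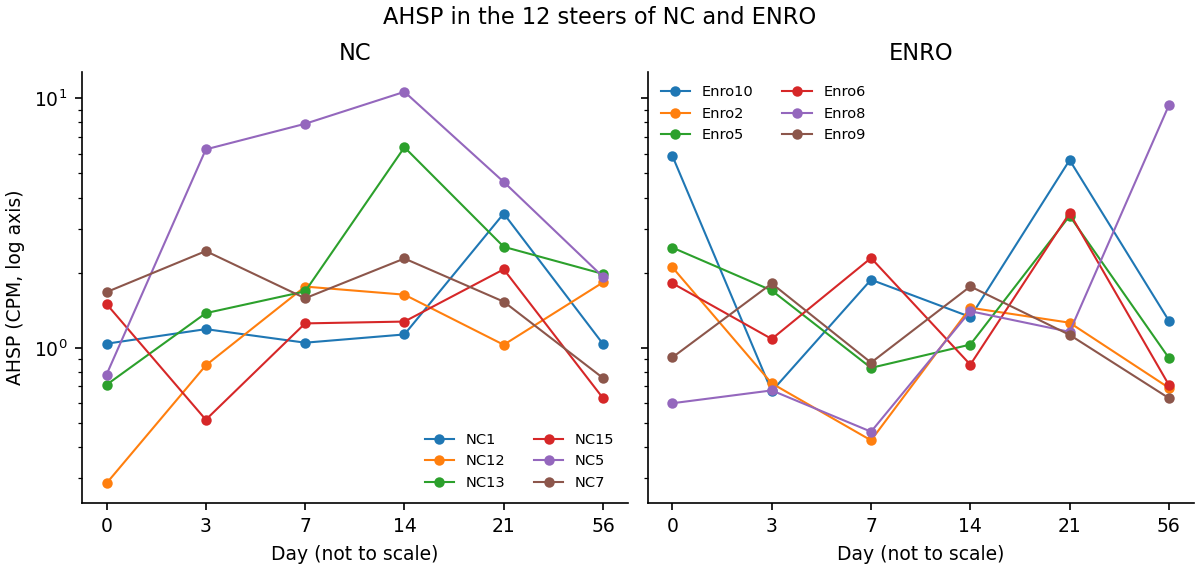
AHSP (CPM, log axis) in the 6 NC and the 6 ENRO steers by day, 1 line for each steer. Enro10 falls from 5.87 CPM on day 0 to 1.87 on day 7 while NC5 rises from 0.781 to 7.90, and Enro8 reaches 9.38 on day 56.

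The ratio of alpha to beta chain counts had like medians over most of the range of hemoglobin shares. The log2 ratio of HBA and HBA1 together to HBB had a median of 0.24 in the 28 libraries with a share from 0.05% to 0.2%, 0.14 in the 80 from 0.2% to 1%, 0.21 in the 79 from 1% to 5% and 0.43 in the 41 above 5%. In the 24 libraries below 0.05%, from 18 steers, its median was -1.87 and its lowest value -4.20. In those libraries HBB held between 30.8 and 301 CPM while HBA and HBA1 together had a median of 34.8 CPM. They lay mainly on days 0 and 7, with 9 each, and their totals had a median of 43.1 in units of 1e6 counts, beside 43.6 for all libraries.

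**Figure D5:**
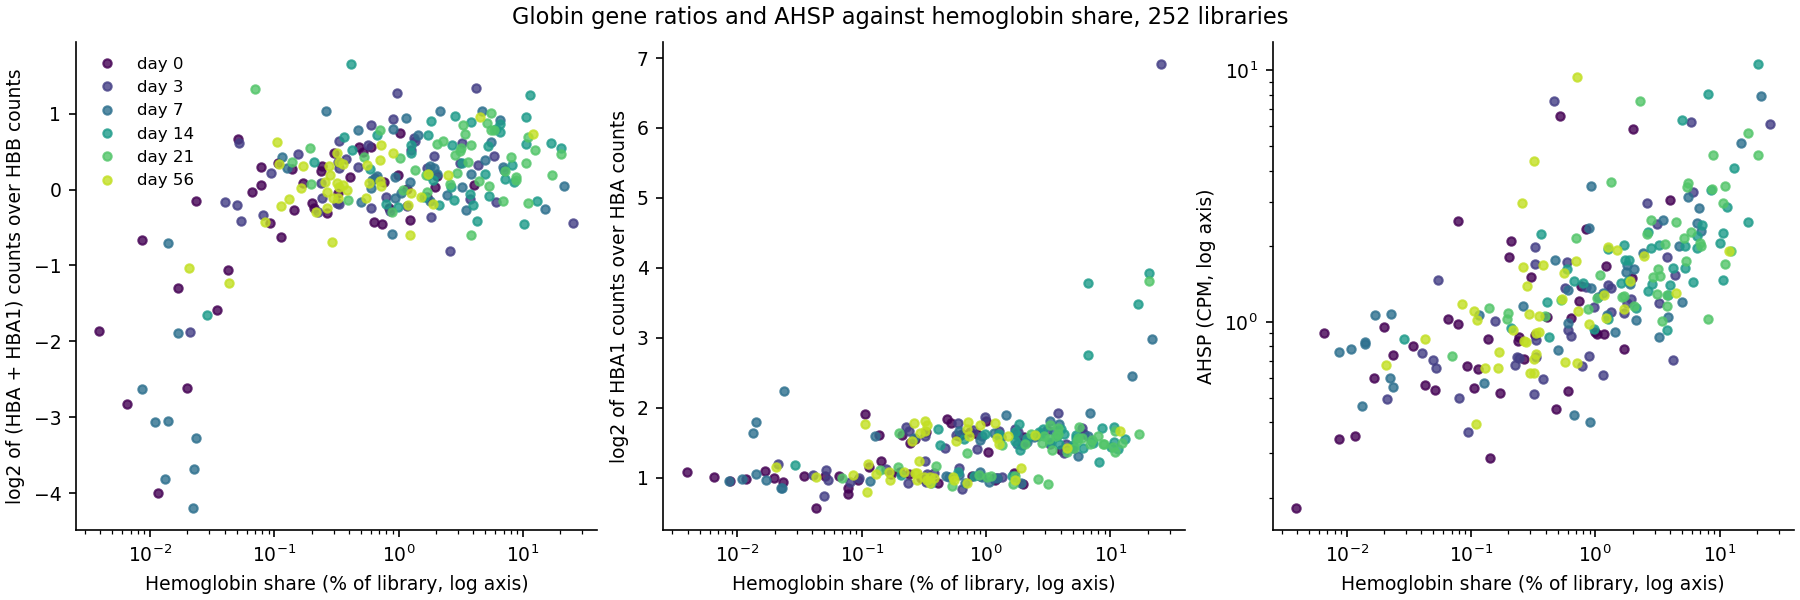
Log2 ratio of HBA and HBA1 together to HBB (left), log2 ratio of HBA1 to HBA (middle) and AHSP in CPM (right, log axis) against the hemoglobin share (percent, log axis) in all libraries, coloured by day. Among these libraries the left ratio drops below -1 only where the share is under 0.05%, the middle one gathers between 0.9 and 1.2 and between 1.4 and 1.8 with 5 libraries above 3, and AHSP stays between 0.182 and 1.08 CPM where the share is under 0.05% and reaches 10.6 CPM above it.

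Over days, the alpha to beta ratio rose from day 0 by 0.48 ± 0.18 (SE, log2) at day 3, 0.66 ± 0.16 at day 14, 0.70 ± 0.15 at day 21 and 0.37 ± 0.16 at day 56, with adjusted p of 0.0132, 5e-05, 5e-05 and 0.0354 (sign-flip permutation test over 42 steers). On day 7 it changed by -0.07 ± 0.27 and did not pass. The median changes were 0.27, 0.44, 0.44 and 0.19 on days 3, 14, 21 and 56, below the means. On day 7 the median change was 0.15, with 24 of 42 steers higher. The steers were above day 0 in 31 of 42 on days 3, 14 and 21. On day 14 the adjusted p within lanes 1, 2 and 3 was 0.072, 0.00732 and 0.348 (exact sign-flip permutation test). On day 21 it was 0.072, 0.00781 and 0.0326 in the same test, and days 3 and 56 passed in no single lane. Of the libraries with a share under 0.05%, where this ratio was lowest, 9 were from day 0, 1 from day 14 and 0 from day 21. Their part in these changes was not tested. A share of at least 1% on both days was found in 6 steers only, for days 7, 14 and 21, and over these the change was 0.46 ± 0.14 on day 14 with an exact sign-flip permutation p of 0.0625, where 0.03125 is the smallest that 6 steers allow. On day 21 it was 0.24 ± 0.14 in the same comparison, higher in 4 of 6 steers, with an exact permutation p of 0.219, and on day 7 it was 0.065 ± 0.16 (exact permutation p = 0.719).

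The ratio of AHSP to its alpha chain partners fell as the hemoglobin genes rose. The log2 ratio changed by -3.24 ± 0.43 (SE) on day 14 and -3.26 ± 0.46 on day 21, and it was below day 0 in all but 3 and 4 of 42 steers (adjusted p of 5e-05 for both, sign-flip permutation test). Over the 6 steers with a share of at least 1% on both days the changes were smaller, at -1.75 ± 0.44 on day 14 and -1.66 ± 0.42 on day 21, lower in 6 of 6 steers on both days (exact permutation p = 0.0312, the smallest possible, and 0.0938 after adjustment). On days 3 and 56 it also fell, by 1.76 and 1.13, and on day 7 it changed by -1.16 and did not pass (adjusted p = 0.0757, permutation test). The ratio of HBM to HBB rose on day 3, by 0.83 ± 0.23 (adjusted p = 0.000686, permutation test), and did not pass on any other day with 0.5 added to each count. With 5 added it rose on day 3 by 0.48 (adjusted p = 0.00847, permutation test) and fell on days 7, 14 and 21, by 0.57, 0.30 and 0.63, with adjusted permutation p of 0.00235, 0.0327 and 0.000233. In lane 1 alone, with 0.5 added, it fell on day 21 by 0.89, in 14 of 14 steers (adjusted p = 0.00244, exact permutation test). In lanes 2 and 3 it changed by 0.22 and -0.12 on day 21 and did not pass. The rise on day 3 passed in no single lane (adjusted p of 0.286, 0.067 and 0.0947, exact permutation test). The course of this ratio after day 3 thus depended on the number added, in a gene that had no count in 7 libraries.

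HBA1 and HBA were not counted in 1 fixed proportion. Their log2 ratio lay between 0.9 and 1.2 in 90 libraries and between 1.4 and 1.8 in 122, while 13 lay between 1.2 and 1.4. It was above 1.3 in 149 libraries, with 16, 23, 26, 35, 30 and 19 of them on the 6 days in order. The libraries of 35 of 42 steers lay on both sides of 1.3, so that the proportion changed within animals. It was above 3 in 5 libraries of 4 steers, and highest in Tild3 on day 3, where HBA1 held 106737 CPM and HBA 884 CPM, a log2 ratio of 6.92. The division at 1.3 was set after seeing the data, and the part of the split of counts between near-identical transcripts was not tested. From day 0 to day 14 the ratio rose by 0.44 ± 0.11 (SE, adjusted p = 0.00012, sign-flip permutation test), in 27 of 42 steers. The median change was 0.17, below the mean, and 3 of the 5 libraries above 3 were from day 14, with log2 ratios of 3.93 in NC5, 3.78 in Tula7 and 3.48 in Tula4. It also rose on day 7, by 0.20 ± 0.085 with a median of 0.054 (adjusted p = 0.0359, permutation test), and on day 21, by 0.21 ± 0.091 with a median of 0.11 (adjusted p = 0.035, permutation test). Within lanes 1, 2 and 3 the adjusted p on day 14 was 0.0917, 0.0191 and 0.0641 (exact permutation test). The rises on days 7 and 21 passed in no single lane. The median of this log2 ratio also differed with the hemoglobin share, from 1.01 in libraries under 0.05% to 1.57 in those above 5%. The part of the share in the changes over days was not tested.

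The 4 hemoglobin genes moved together from library to library. After the mean of each group on each day was subtracted, Spearman's correlation over all libraries was 0.98 between HBA and HBA1, 0.97 between HBB and HBA1, 0.96 between HBB and HBA, and 0.92 to 0.94 between HBM and the other 3. AHSP correlated at 0.59 with HBA and at 0.65 with HBM, and 17 genes outside the 5 had higher values with AHSP than HBM did. Libraries of 1 steer and of 1 lane enter together here, and these correlations are a description without a test.

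Among the other 19051 genes, those most like the hemoglobin genes were few and shared. REEP1, a gene for an endoplasmic reticulum shaping protein, LOC787671, which lies between HBE2 and HBG in the beta cluster, ALAS2, the first enzyme of heme synthesis in erythroid cells, and ARG1, the arginase of the urea cycle, gave correlations from 0.86 to 0.96 with HBB, HBA and HBA1. ATP5IF1, an inhibitor of the mitochondrial ATP synthase, correlated at 0.91 with HBB and 0.86 with HBM. LOC787671 went from a median of 17.8 CPM on day 0 to 485.1 on day 14 and 30.4 on day 56, and REEP1 from 2.87 to 24.8 and 3.40 CPM. For HBA and HBA1 the uncharacterized locus LOC112444879 completed the list, and for HBM the locus LOC112448845. The genes most like AHSP were others, namely SLC4A1, the anion exchanger of the red cell membrane, at 0.79, SEMA6B at 0.78, LOC616574 and AQP1, the water channel, at 0.77, and DMTN, a protein of the red cell skeleton, at 0.77.

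Other genes of the erythroid line followed the hemoglobin genes in part. Of the other hemoglobin genes, 5 were tested (HBQ1, HBG, HBZ, HBE1 and HBE2), and all 5 were called higher on days 3, 7, 14 and 21 and none on day 56, at 33.8% of all genes called higher and 31.2% lower on day 14 and 33.5% and 31.9% on day 56. Their median log2 fold change on day 14 was 2.65, beside 0.02 over all genes tested. With library totals in place of TMM 4 of the 5 were called higher on days 3 and 7. Without the replicate block 4 were called higher on day 3 and 3 on day 7. HBQ1, the theta gene next to HBA1, went from a median of 3.86 CPM on day 0 to 73.4 CPM on day 14, with a log2 fold change of 3.67 ± 0.44 (SE, edgeR adjusted p = 9.5e-14). HBG, a beta-like gene, rose by 2.84 ± 0.43 on day 14 from a median of 0.289 CPM to 2.22 CPM. HBE1 rose by 2.396 ± 0.34, from a median of 0.0234 CPM, with 21 of 42 libraries at 0, to 0.293 CPM. HBZ rose by 2.65 ± 0.54 at medians under 0.1 CPM, with 28 of 42 libraries at 0 on day 0 and 20 on day 14. HBE4 was too low to be tested.

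Of 14 genes of heme synthesis and mitochondrial import, 8 were called higher and 3 lower on day 14, with a median log2 fold change of 0.37. Over all genes tested the day 14 calls were 33.8% higher and 31.2% lower. ALAS2 rose by 3.09 ± 0.37 (SE, edgeR adjusted p = 1.3e-13), from a median of 29.3 CPM to 379.6 CPM, and was still called on day 56, at 0.91. SLC25A39, a mitochondrial carrier, rose by 1.08 and ALAD, the enzyme that follows ALAS2, by 1.05. The 3 genes called lower were ABCB10, a mitochondrial transporter, at -0.29, CPOX, a later enzyme of the pathway, at -0.43, and FLVCR1, a heme exporter, at -0.59. The summed level of this list went from a median of 450.0 CPM on day 0 to 905.7 CPM on day 14.

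Of 17 genes of the red cell membrane, 12 were called higher and 1 lower on day 14, beside 33.8% and 31.2% of all genes. Their median log2 fold change was 0.86. ACKR1, the Duffy antigen, rose by 2.65 ± 0.295 (SE, edgeR adjusted p = 1.38e-15), KEL, the Kell antigen, by 2.51, DMTN by 1.91 and EPB42, a protein of the membrane skeleton, by 1.72. XK, the partner of Kell, was the 1 called lower, at -0.28, while 3 were called lower with library totals in place of TMM. On day 56, 4 of the 17 were called higher and 1 lower, beside 33.5% and 31.9% of all genes. The summed level of the membrane list had a median of 679.7 CPM on day 0 and 680.9 CPM on day 14.

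Of 14 erythroid regulators, 8 were called higher and 2 lower on day 14, with a median of 0.30, beside 33.8% and 31.2% of all genes called. HEMGN, a nuclear protein of erythroid cells, rose by 1.27, TRIM58, a ligase of late erythroblasts, by 1.05, GATA1, the master regulator, by 1.02 and its cofactor ZFPM1 by 0.63. GATA1 was also called on day 56, at 1.03, when the hemoglobin genes were not, and GATA1 is transcribed in eosinophils, basophils and platelet precursors as well. NFE2, which neutrophils and platelet precursors also carry, and ZBTB7A fell by 0.26 and 0.20. The summed level of the regulators, of which NFE2 had the highest mean, went from a median of 1490 CPM on day 0 to 1321 CPM on day 14. Of 19 genes of reticulocyte maturation and red cell enzymes, 11 were called higher and 4 lower on day 14, beside the same 33.8% and 31.2%. ADD2, CA2, TMCC2 and BLVRB rose by 1.65, 1.41, 1.08 and 1.05, while BNIP3L fell by 0.15, CAT by 0.08, TFRC, the transferrin receptor, by 0.87 and XPO7 by 0.09. The summed level of this last list went from a median of 796.0 CPM on day 0 to 908.9 CPM on day 14. With library totals in place of TMM the erythroid lists held 17 genes called lower on day 14 in place of 10. Of the 17, 5 were in heme synthesis, 3 in the membrane list, 3 among the regulators and 6 in the last list. Over all genes tested, 7503 were then called lower in place of 5946.

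Markers of other blood cells moved over the same days, and their part in the globin changes was not tested. Of all genes tested, 33.8% were called higher and 31.2% lower on day 14. On day 14, 9 of 10 T cell genes were called higher, with CD3E at 0.59, as were 6 of 8 B cell genes, with CD79A at 0.45. All 7 monocyte genes were called lower, with LYZ at -0.45, and so were 5 of 9 neutrophil genes, with S100A9 at -0.52. Of 6 genes of NK and cytotoxic cells 1 was called higher and 4 lower, with PRF1 at -0.36, of 6 of eosinophils and basophils 4 higher and 1 lower, with SIGLEC8 at -0.32, and of 10 platelet genes 4 higher, with TUBB1 at 0.16 not called. The summed level of the T cell genes went from a median of 2225 CPM, between 1599 and 3361 CPM, on day 0 to 2818 CPM, between 2085 and 4617 CPM, on day 14 and to 3117 CPM on day 56. The neutrophil genes went from 2590 CPM, between 1466 and 5392 CPM, to 1565 CPM, between 910 and 3573 CPM, and stayed at 1629 CPM on day 56. On day 56 both medians were closer to day 14 than to day 0. With library totals in place of TMM the counts called higher on day 14 were 7 of 10 for T cells, 4 of 8 for B cells and 1 of 10 for platelets, with 1 platelet gene lower, and 7 of 9 neutrophil genes were called lower. Of all 19056 genes, 4705 were then called higher and 7503 lower.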

How the data were processed

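Per the labels and the methods of the study, the authors trimmed the reads with Trimmomatic 0.39, checked them with FastQC 0.11.9, aligned them with HISAT2 to the ARS-UCD1.3 assembly, assembled transcripts with StringTie 2.2.0 and derived gene counts from transcript coverage at a read length of 150. The deposited values are whole-number counts, not normalized. No globin depletion step is named in the sources used here. No transcript length was used, and no sequences are shown because none was at hand.

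Counts were divided by library totals for CPM and shares. Genes above 0.2 CPM in at least 12 libraries were kept (19056 genes; 14226 were not tested). Day changes and their differences between groups were fitted with edgeR 4.0.16 (TMM, quasi-likelihood) with steer as a block and treatment by day cells, and treatments were compared with NC within days (FDR of 0.1). The group effect used limma 3.58.1 (voom). DESeq2 1.42.0 and ComBat_seq from sva 3.50.0 gave alternatives. Shares and ratios (0.5 added to each count) were tested by permutation with SciPy 1.17.1, two-sided, with Benjamini-Hochberg adjustment within each family (36 treatment comparisons, 20 ratio changes, 5 day changes). Scripts were tested on simulated data. Steer identity came from the sample titles. Libraries of 1 steer deviated together from their group and day means (median correlation of 0.300, beside -0.0731 between steers of a group), in 42 of 42 steers.

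The members, lists and named genes were chosen with earlier results of these data known. Genes named were, from each erythroid list, the 4 with the largest absolute change on day 14 and those called the other way, from each other blood cell list the gene of highest mean CPM, and for each member the 5 genes of highest Spearman correlation. The values of 1 gene that this rule names are not reported here. Lanes came from the deposited column names.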

Additional observations from a re-analysis of the deposited data

Results flagged for a closer look

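In 6 steers of a group on a day, the highest or lowest library was checked for a gap to its neighbour that, as a part of the whole range, passed Dixon's 95% critical value on the log2 scale (0.01 CPM added for HBM), over 5 genes and the share. Over 7 groups and 6 days, 21 such gaps were found, where chance alone gives one in about 5% of sets. Enro6 on day 14 stood below the other ENRO steers in HBB (219.6 CPM), HBA (21.4 CPM), HBA1 (48.7 CPM), HBM (0.727 CPM) and share (0.0290%). Oxyt9 on day 21 stood below the other OXYT steers in HBB (199.3 CPM), HBA (166 CPM), HBA1 (332 CPM), AHSP (0.729 CPM) and share (0.0700%). Flor6 on day 21 was low in HBA (247 CPM), HBA1 (535 CPM) and share (0.139%), Tula8 on day 3 in HBA (87.1 CPM), Tula3 on day 14 in share (1.26%), Tula5 on day 7 in AHSP (0.402 CPM) and Oxyt4 on day 0 in HBM, at 0 CPM. NC5 was above the other NC steers in HBB (82189 CPM) and HBM (231 CPM) on day 14 and in AHSP (7.90 CPM) on day 7, and Enro8 had the highest AHSP of its group on day 56, at 9.38 CPM.

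The change of AHSP from day 0 to day 7 differed between ENRO and NC by -2.22 on the log2 scale, in a test of the difference itself (edgeR adjusted p = 0.0403). It did not pass without Enro10 (edgeR adjusted p = 0.133), without Enro2 (edgeR adjusted p = 0.226) or without NC5 (edgeR adjusted p = 0.220), nor in an exact permutation test of the log2 changes after adjustment over the 5 days (p = 0.0938).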

How the results depend on the processing

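Of the 25 day changes of the 5 genes 18 passed, as they did with DESeq2 size factors, library totals, totals without HBB, HBA, HBA1 and HBM, and no filter. ComBat_seq by lane gave 19, and limma voom 20. Without the replicate block 20 passed, while the 1 difference from NC in the change from day 0 and the 5 days of the share passed with and without it. Single lanes 1, 2 and 3 gave 8, 18 and 10 of 25 and NC alone gave 10, with fewer samples in each fit. In lane 1 the log2 fold change of AHSP was -0.58 on day 3, -0.20 on day 7 and -0.59 on day 56, and that of HBM was -0.11 on day 56. For the share, lane 1 passed on 3 of 5 days, lane 2 on 4 and lane 3 on 2, and each of the 7 groups alone passed on 0 (exact test, smallest p of 0.03125 before adjustment), with a mean log2 change of -0.032 in CEFT on day 56. A group alone can pass only if most of its 5 days reach that smallest p, so this 0 says little. Of the comparisons with NC 0 of 180 passed, and 10 passed by DESeq2. With lane as a term the log2 fold change of HBB in TILD became 2.77 on day 7 and 0.039 on day 14, and the cause was not tested. TILD and NC shared no lane, and FLOR was the only group that joined lane 1 to another lane. These values therefore rest on the FLOR steers and do not set lane and treatment apart. No paired analysis was possible because steer numbers of different groups mark different animals in the comparisons with NC.

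Of the 20 changes of ratios 12 passed, 15 with 5 added to each count, 4, 6 and 3 in lanes 1, 2 and 3, and 0 of 12 where both libraries held at least 1% (6 steers). With 6 steers the smallest possible p of 0.03125 passes adjustment only if most of the 12 tests reach it, so this 0 says little. The log2 change of HBM to HBB became -0.30 on day 14, where it passed, and -0.16 on day 56 with 5 added, where the falls on days 7 and 21 passed too, -0.51 and -0.30 in lane 1, 0.22 on day 21 in lane 2 and -0.057 on day 14 at 1% or more. That of HBA and HBA1 to HBB on day 7 became 0.29 in lane 2 and 0.065 at 1% or more. Of 69 tested genes of the erythroid lists 44 were called higher on day 14, 43 with library totals and 42 without the replicate block. Called lower were 10, 17 with library totals and 9 without the replicate block. Over all genes 33.8% were called higher and 31.2% lower on day 14. With library totals 4705 of all 19056 genes were called higher and 7503 lower. Where both libraries held at least 1%, the log2 change of AHSP to HBA and HBA1 was -1.75 on day 14 and -1.66 on day 21. Leaving out each of the 12 steers of ENRO and NC in turn gave differences of the AHSP change on day 7 from -2.67 to -1.63. These leave-out fits, those without NC5 and Tild3 and the limit of 1% were chosen after seeing the data.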
